A study of Rattus norvegicus with 18 samples.

Results

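The transcripts described here belong to 8 genes of the acrosome and of sperm-egg binding and fusion: *Eqtn*, *Acr*, *Acrbp*, *Zpbp*, *Izumo1*, *Spam1*, *Crisp2* and *Adam2*. They were taken from the RNA-seq table by matching its RefSeq accessions to these rat symbols. Each gene matched 1 transcript, so the set holds 8 of 7016 deposited transcripts. The libraries are from whole testes of Wistar rats aged 8 weeks, 3 from a chronic sleep restriction (CSR) group and 3 from a control group. The labels name no genotype, no agent and no length of restriction. Nor do they tie each library to a separate animal, and the p-values below cover the spread between libraries, which may be technical. The submitters' codes for control libraries 1 and 2 share a stem that control library 3 does not have. The 8 genes were selected on their function with the CSR and control FPKM values of this same contrast already known, *Eqtn* among them as a large called rise. Their values are therefore a description, and the p-values printed for them come from the fit over all tested transcripts and support nothing about the set.

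The acrosome is a large secretory vesicle that caps the sperm nucleus. It is built from Golgi vesicles in round spermatids and released when sperm meet the egg coat, which exposes enzymes and the membrane proteins used for fusion. Many of its genes are transcribed in late spermatocytes and round spermatids, and their mRNAs can be stored before translation. CREM, a transcription factor of spermatids, binds the palindrome TGACGTCA and related cAMP response elements.

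Start regions from RefSeq (GRCr8) were at hand for 7 of the 8 genes, all but *Adam2*. The 250 bases before the RefSeq start are shown for *Eqtn*, *Acr*, *Izumo1*, *Spam1* and *Acrbp*. *Eqtn*, *Acr* and *Izumo1* had the largest log2 fold changes between CSR and control of the 8, and *Spam1* has the same 8-letter motif. *Acrbp* has only the shorter string TGACG, the core of TGACGTCA, and the first of its 2 listed starts was used. The motif in *Eqtn*, *Acr* and *Spam1* does not contain that core. The windows lie at chr5:114877570-114877819 on the minus strand, and, on the plus strand, at chr7:122517684-122517933, chr1:105227353-105227602, chr4:54268037-54268286 and chr4:159537149-159537398. Capitals mark the 8-letter motif TGANGTCA, in which 1 base is free and which covers TGACGTCA.
Eqtn: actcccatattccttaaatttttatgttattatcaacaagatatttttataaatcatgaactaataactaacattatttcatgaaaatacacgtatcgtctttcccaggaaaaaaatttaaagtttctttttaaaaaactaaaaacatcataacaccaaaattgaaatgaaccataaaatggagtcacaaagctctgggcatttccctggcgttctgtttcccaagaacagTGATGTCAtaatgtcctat
Acr: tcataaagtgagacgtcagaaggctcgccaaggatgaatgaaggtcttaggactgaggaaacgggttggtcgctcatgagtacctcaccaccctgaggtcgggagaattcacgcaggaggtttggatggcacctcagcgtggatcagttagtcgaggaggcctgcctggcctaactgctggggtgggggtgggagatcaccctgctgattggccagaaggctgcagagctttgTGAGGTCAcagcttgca
Izumo1: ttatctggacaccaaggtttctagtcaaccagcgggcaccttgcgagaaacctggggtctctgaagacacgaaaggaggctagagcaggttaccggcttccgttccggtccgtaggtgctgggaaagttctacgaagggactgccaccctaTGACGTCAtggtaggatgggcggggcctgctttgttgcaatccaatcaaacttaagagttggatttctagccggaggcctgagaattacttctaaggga
Spam1: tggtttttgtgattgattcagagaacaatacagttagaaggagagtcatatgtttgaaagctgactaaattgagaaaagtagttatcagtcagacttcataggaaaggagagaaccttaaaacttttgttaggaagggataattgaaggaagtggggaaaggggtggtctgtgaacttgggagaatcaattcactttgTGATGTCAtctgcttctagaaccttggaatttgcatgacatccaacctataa
Acrbp: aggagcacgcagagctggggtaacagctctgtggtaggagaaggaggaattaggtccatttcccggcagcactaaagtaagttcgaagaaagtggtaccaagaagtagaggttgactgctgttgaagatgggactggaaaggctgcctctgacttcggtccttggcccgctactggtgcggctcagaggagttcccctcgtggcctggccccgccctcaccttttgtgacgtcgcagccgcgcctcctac

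The motif was chosen after these sequences had been read, and both strands were searched. It occurred before 4 of the 7 starts. In *Eqtn*, *Acr* and *Spam1* it lay on the strand of the gene, while the *Izumo1* match reads the same on both strands. The match began 19 bases before the start in *Eqtn*, 17 in *Acr*, 52 in *Spam1* and 99 in *Izumo1*. Only the *Izumo1* match was the full palindrome TGACGTCA. Within it the 5-letter core TGACG reads 1 time on each strand, overlapping the motif. *Acr* had the core only near the far end of its window, away from its motif, and *Acrbp* had a core beginning 24 bases before its start. The windows of *Zpbp* and *Crisp2* held neither string. Of 4575 genes with a tested transcript and a RefSeq start, 8.77% held TGANGTCA in the same window, 3.85% held TGACGTCA and 32.5% held TGACG. Of the 4 genes with the motif, *Eqtn*, *Acr* and *Izumo1* had higher mean levels in CSR than in control, and *Spam1* had a lower one. Only the *Eqtn* difference was called, and a link between the motif and the direction was not tested. A match in these letters is not a measured site of binding.

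**Figure D1:**
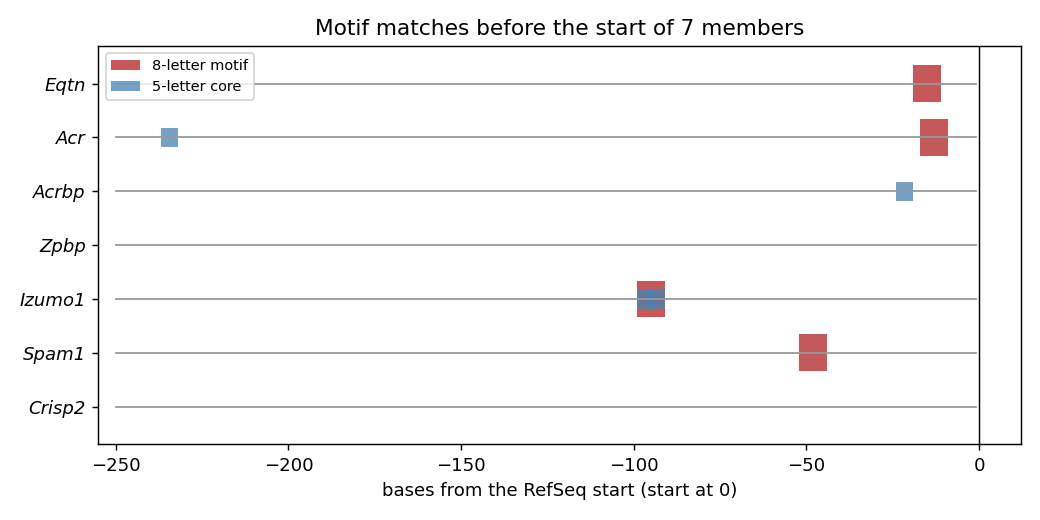
Matches of TGANGTCA (tall red boxes) and of the core TGACG (short blue boxes) on either strand, by distance in bases from the RefSeq start (x axis), for 7 genes (y axis). The 8-letter motif lies within 100 bases of the start in *Eqtn*, *Acr*, *Izumo1* and *Spam1*, and no box is drawn for *Zpbp* and *Crisp2*.

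Levels are given in FPKM, the unit the authors deposited, which corrects for transcript length and library size and lets levels be set side by side between genes. *Crisp2* (NM_001011710), a cysteine-rich protein of the acrosome and the flagellum, stood far above the others. It read 1529, 1342 and 1337 FPKM in CSR against 1633, 1424 and 1514 in control, and its mean over the 6 libraries was the 5th highest of all 7016 transcripts. It made up 74.2 to 77.1% of the summed FPKM of the 8 transcripts in CSR and 78.0 to 80.4% in control. The order of the others differed between the groups. In CSR the group means ran from *Acrbp* at 140.3 FPKM through *Acr* at 97.5, *Spam1* at 74.5, *Adam2* at 51.1, *Zpbp* at 41.0 and *Izumo1* at 29.0 to *Eqtn* at 24.8 FPKM, and of the neighbours in that order only the libraries of *Izumo1* and *Eqtn* overlapped. In control they ran from *Acrbp* at 122 FPKM through *Spam1* at 94.8, *Adam2* at 69.9, *Acr* at 49.0, *Zpbp* at 44.0 and *Izumo1* at 10.8 to *Eqtn* at 1.90 FPKM. There *Acr* overlapped with *Adam2* and with *Zpbp*, *Izumo1* overlapped with *Eqtn*, and the other neighbours did not overlap. *Acr* thus lay above *Spam1* in every CSR library and below it in every control library.

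Over the whole table, limma called 25 of 5657 tested transcripts (0.442%) at an adjusted p under 0.05, 13 higher (0.23%) and 12 lower (0.212%) in CSR. The split moved with the settings: it was 11 higher and 6 lower after quantile normalization, 13 and 23 with no filter on low values, 12 and 4 with values above 0 in all 6 libraries, and 17 and 60 without the mean-variance trend. All 8 transcripts passed the filter on low values, at least 1 FPKM in at least 3 libraries, and none was at 0 in any library, while the table lists 1000 to 1415 transcripts at 0 per CSR library and 275 to 423 per control library. Only *Eqtn* was among the calls, and nothing is read from its share because the genes were chosen with this contrast in view. By sign of the log2 fold change, 4 of the 8 were positive and 4 negative (median 0.06), beside 2490 positive and 3167 negative of all tested transcripts (median -0.06). The median over all transcripts moved with the filter on low values. It was -0.0009 with at least 1 FPKM in all 6 libraries and 0.02 with values above 0 in all 6. Fold changes are CSR minus control on log2(FPKM + 1), and their intervals below are not adjusted for the number of transcripts tested.

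**Figure D2:**
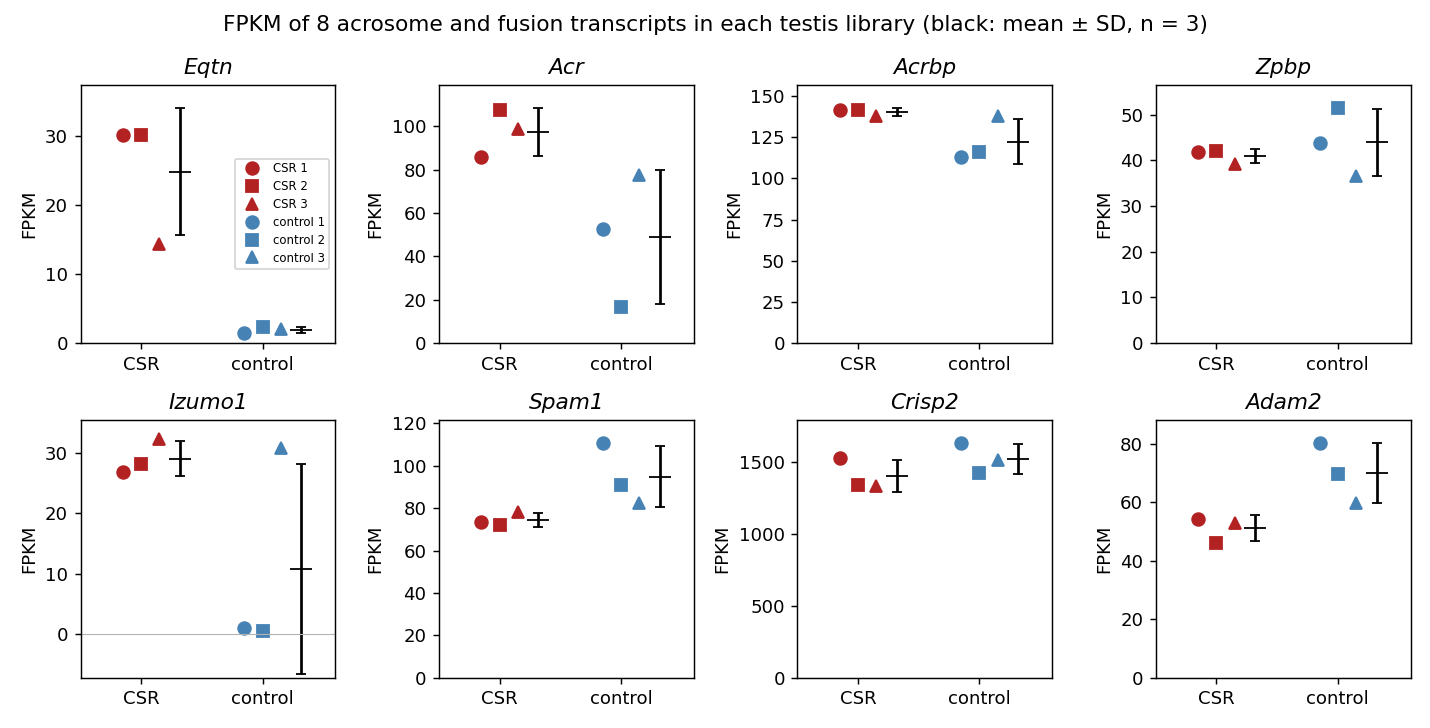
FPKM (y axis, each panel with its own scale) of the 8 transcripts in each CSR (red, left) and control (blue, right) library; black bars are the mean ± SD of 3 libraries. The *Izumo1* panel has 2 control libraries near 0 and the third at 30.7 FPKM, whereas all 3 control libraries are low for *Eqtn*.

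Among the membrane proteins, *Eqtn* (NM_001039345) encodes equatorin, which lies in the acrosomal membrane. It read 30.1, 30.0 and 14.2 FPKM in CSR libraries 1 to 3 against 1.44, 2.27 and 2.00 in control libraries 1 to 3. CSR library 3 had less than the other CSR libraries, and still lay several times above every control library. The ratio of the group means was 13.0, and the log2 fold change was 3.09 with a 95% interval of 2.32 to 3.85 (limma, adjusted p = 0.0269). The fold change was 3.12 when only control libraries 1 and 2 served as controls and 3.03 when control library 3 was the lone control, so its size did not turn on that library. The call itself was lost when CSR library 1 or 2, or control library 1 or 2, was left out (limma, adjusted p from 0.0674 to 0.172), and when control libraries 1 and 2 were averaged as 1 library (adjusted p = 0.118).

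*Izumo1* (NM_001017514) encodes the sperm surface protein that binds the egg receptor Juno and is needed for fusion in mice. It read 26.8, 28.1 and 32.2 FPKM in CSR libraries 1 to 3 against 1.06, 0.482 and 30.7 in control libraries 1 to 3. Control library 3 thus lay within the CSR range, and the other control libraries lay far below it. Within the control group the highest value was 63.8 times the lowest, against 1.20 times within CSR. The CSR mean of 29.0 FPKM was 37.7 times the mean of control libraries 1 and 2 but 0.945 times the value of control library 3. The log2 fold change of 2.71 had a 95% interval of -0.07 to 5.48 and did not pass (limma, adjusted p = 0.372). Without control library 3 it was 4.10 and passed (limma, adjusted p = 0.00569), and with that library as the lone control it was -0.08 (limma, adjusted p = 0.975).

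*Adam2* (NM_020077) encodes fertilin beta, which is needed in mice for sperm to bind the egg coat and reach the oviduct. It read 54.3, 46.0 and 53.1 FPKM in CSR against 80.3, 69.7 and 59.8 in control. Every CSR library lay below every control library, a pattern that 12.6% of all tested transcripts showed. The log2 fold change was -0.44 with an interval of -0.76 to -0.11 and did not pass (limma, adjusted p = 0.363).

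Of the 2 enzymes, *Acr* (NM_012490) encodes acrosin, the serine protease of the acrosome. It read 85.9, 108 and 99.0 FPKM in CSR against 52.8, 16.4 and 77.7 in control. All CSR libraries were above all control libraries, as in 8.96% of tested transcripts, but the spread in control was wide, with the highest library at 4.73 times the lowest. The log2 fold change of 1.23 (interval -0.09 to 2.54) did not pass (limma, adjusted p = 0.378). Leaving out control library 3 gave 1.68, leaving out control library 2 gave 0.59, and control library 3 as the lone control gave 0.32.

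*Spam1* (NM_053967) encodes PH-20, the hyaluronidase with which sperm cross the cumulus layer. It read 73.3, 72.0 and 78.0 FPKM in CSR against 111, 91.1 and 82.7 in control. It was lower in every CSR library than in any control library, as in 12.6% of tested transcripts, and control library 3 lay closest to CSR. The log2 fold change was -0.34 with an interval of -0.64 to -0.03 (limma, adjusted p = 0.363), and it was -0.15 with control library 3 as the lone control.

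Of the matrix proteins, *Acrbp* (NM_001025049) encodes the protein that binds proacrosin and takes part in packing the acrosomal granule. It read 142, 142 and 138 FPKM in CSR against 113, 116 and 138 in control. The groups overlapped only through control library 3, and the log2 fold change of 0.20 (interval -0.04 to 0.45) did not pass (limma, adjusted p = 0.396). *Zpbp* (NM_001025139), an acrosomal matrix protein that binds the egg coat, read 41.9, 42.0 and 39.1 FPKM in CSR against 43.9, 51.4 and 36.6 in control. The control libraries lay on both sides of CSR, and the log2 fold change of -0.09 had an interval of -0.42 to 0.24. For *Crisp2*, whose libraries overlapped as well, the log2 fold change was -0.12 with an interval of -0.40 to 0.16.

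**Figure D3:**
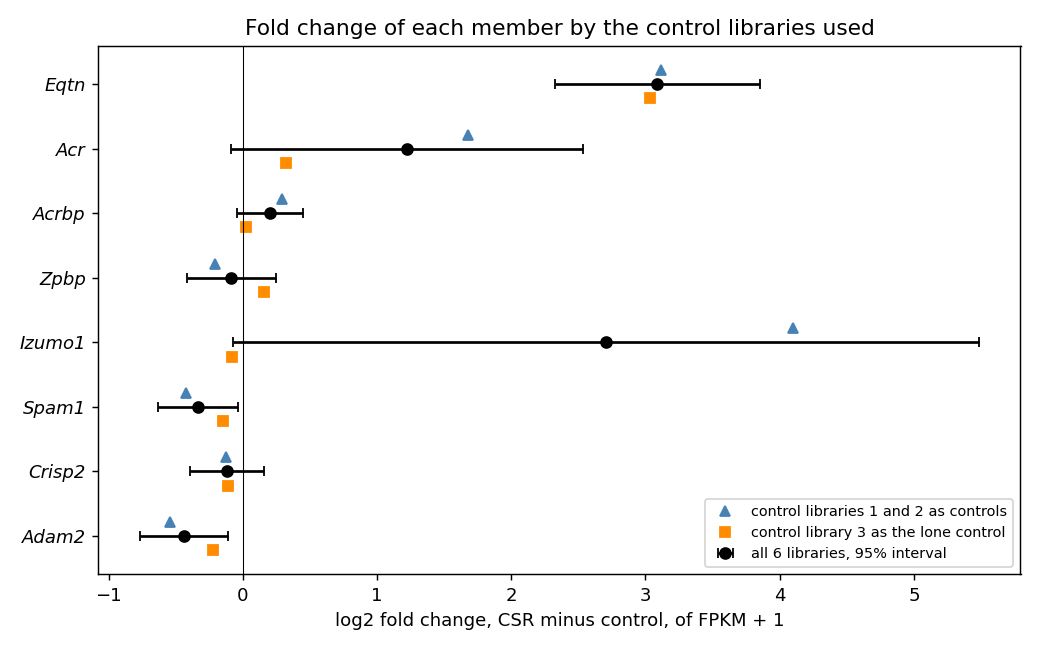
Log2 fold change of FPKM + 1, CSR minus control (x axis), of each of the 8 transcripts: black points with 95% intervals are from all 6 libraries, blue triangles from control libraries 1 and 2 as controls, orange squares from control library 3 as the lone control. The 3 estimates lie together for *Eqtn*, at 3.03 to 3.12, and apart for *Izumo1*, at -0.08 to 4.10.

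The spread between libraries differed among the genes. In CSR the coefficient of variation was 36.9% for *Eqtn* and between 1.62 and 11.2% for the other 7. In control it was 161% for *Izumo1*, 62.9% for *Acr*, 22.4% for *Eqtn* and between 6.88 and 16.9% for the other 5.

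**Figure D4:**
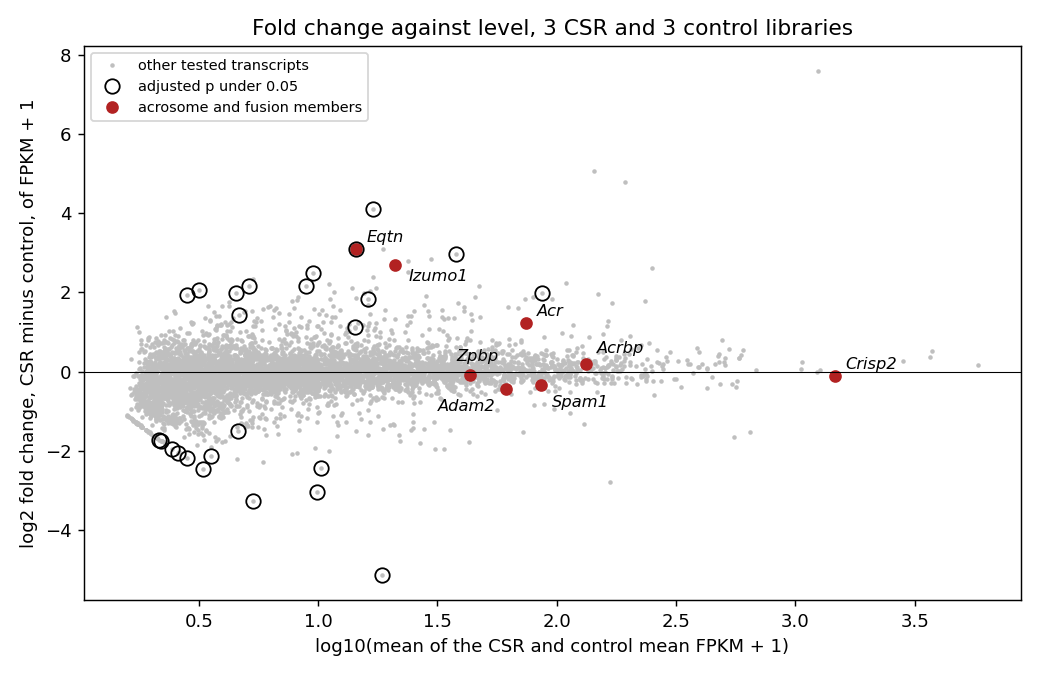
Log2 fold change of FPKM + 1, CSR minus control (y axis), against the log10 level of each of 5657 tested transcripts (x axis); grey points are other transcripts, black rings those with an adjusted p under 0.05, and red points the 8 acrosome and fusion transcripts. *Eqtn* is ringed, and *Crisp2* lies at the high end of the levels near a fold change of 0.

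Low values in control libraries 1 and 2 alone were rare in the table. Both libraries multiplied by 4 still lay under the lowest of the other 4 libraries at 28 of 5657 tested transcripts (0.495%), a limit chosen after the values were seen, and the reverse pattern, both over 4 times the highest other library, was seen at none. *Izumo1* was the member with this pattern. Among the 28, chosen for mention after their values were seen, are the protamine genes *Prm1* and *Prm2*, which package sperm DNA, and *Ggn*, a germ cell gene. *Prm1* read 3029, 2572 and 968 FPKM in CSR libraries 1 to 3 against 0.0934, 0.0981 and 877 in control libraries 1 to 3. Summed over the 13 deposited transcripts of a list of elongating spermatid markers, the level was 20363, 23803 and 22628 FPKM in CSR against 12892, 14508 and 22460 in control. A few transcripts of very high level carry that sum, *Tnp1* first among them. *Tnp1* itself overlapped between the groups, at 3903, 7202 and 7415 FPKM in CSR against 4298, 4411 and 7730 in control. Its CSR library 1 lay below every control library. Of the 13, 2, *Prm1* and *Prm2*, had the low values in control libraries 1 and 2. Others of the list did not follow the sum, such as *Spem1*, named after its values were seen, at 147, 176 and 199 FPKM in CSR against 137, 143 and 137 in control. By sign 11 of the 13 were positive and 2 negative, beside 2490 positive and 3167 negative of all tested transcripts. None of the 13 was called, beside 0.442% of all tested transcripts. *Prm1* (limma, adjusted p = 0.363) and *Prm2* (limma, adjusted p = 0.378) did not pass. In whole testis, a summed level does not tell fewer cells of a type from less RNA per cell. *Tnp1* and *Spem1* did not have the low values of *Prm1* and *Prm2* in control libraries 1 and 2. The cause of those low values was not tested. Whether the makeup of the libraries had a part in the *Izumo1*, *Acr* and *Acrbp* values was not tested.

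Other cell types were followed through marker lists, each given by its summed level per library and by the group means of its highest transcript, in CSR and then in control. The 7 Sertoli cell transcripts summed to 77.5 to 83.8 FPKM in CSR against 85.2 to 96.9 in control, and *Ctsl*, the highest of them, averaged 31.2 and 40.4 FPKM; 2 fold changes were positive and 5 negative. The 6 Leydig cell transcripts summed to 80.5 to 131 FPKM in CSR against 82.4 to 104 in control, led by *Insl3* at 57.5 and 42.6 FPKM, with 3 positive and 3 negative. Spermatocyte transcripts (7) summed to 230 to 290 FPKM in CSR against 173 to 270 in control, led by *Sycp3* of the meiotic chromosome axis at 121 and 109 FPKM, with 4 of the 6 tested positive and 2 negative. The 2 spermatogonial transcripts summed to 24.0 to 36.1 FPKM in CSR and 25.4 to 31.2 in control, led by *Uchl1* at 28.5 and 27.9 FPKM. The peritubular (7), immune (5) and blood and endothelium (3) lists summed to at most 29.3 FPKM in any library, and were led by *Myh11* at 15.8 and 12.5, *Mrc1* at 6.08 and 5.59 and *Hba-a1* at 15.3 and 20.5 FPKM in CSR and control. *Myh11* and *Mrc1* were the only positive ones of their lists: the other 5 of 6 tested peritubular transcripts were negative (median of the 6 -0.48), as were the other 2 of 3 tested immune transcripts (median of the 3 -0.25). Of these *Lyz2*, of macrophages and named after its values were seen, averaged 4.40 ± 0.714 FPKM in CSR against 6.72 ± 0.279 in control. It was lower in every CSR library than in any control library, as in 12.6% of tested transcripts, and did not pass (limma, adjusted p = 0.343). The epididymis list was represented by *Cst8* alone, at 49.5 and 60.1 FPKM. Of the 8 lists apart from elongating spermatids, members were called in 2, *Ccna1* of spermatocytes higher and *Col1a1* of peritubular cells lower in CSR. Over all tested transcripts 0.442% were called. *Ccna1* read 10.7, 5.59 and 6.06 FPKM in CSR against 0.875, 0.841 and 0.735 in control. *Col1a1* was listed at 0 FPKM in every CSR library against 2.30, 2.14 and 2.73 in control, so its call rests on values at the floor.

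Genes of the same pathway were read from 5 further lists covering 144 gene names, of which 78 transcripts were in the table and 75 were tested. None of the 75 was called by limma (smallest adjusted p = 0.192), with 10 at an unadjusted p under 0.05, against 748 of 5657 (13.2%) over all transcripts. By sign, 28 were positive and 47 negative, with a median log2 fold change of -0.15, beside 2490 positive and 3167 negative and a median of -0.06 over all tested transcripts. That last median moved with the filter on low values, as given above. All CSR libraries were above all control libraries for 6 (beside 8.96% of all tested transcripts) and below them for 10 (beside 12.6%), counts near the shares over the whole table.

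The list of acrosome content and zona interaction had 37 tested transcripts, 15 positive and 22 negative, with a median of -0.19. Its highest was *Spa17*, a sperm surface autoantigen, at 1187, 1098 and 1162 FPKM in CSR against 903, 890 and 1141 in control. *Dkkl1*, a glycoprotein of the acrosome, read 531, 565 and 548 FPKM in CSR against 340, 356 and 531 in control. In both, control library 3 lay at or near the CSR values. *Adam3a*, whose mouse counterpart is needed for binding to the egg coat together with fertilin, read 313, 277 and 271 FPKM in CSR against 332, 410 and 384 in control, lower in every CSR library as *Adam2* was (log2 fold change -0.38, standard error 0.11, limma adjusted p = 0.363). The largest differences by size were in low transcripts, *Spaca5* at 2.73, 0 and 2.81 FPKM in CSR against 4.24, 4.49 and 3.25 in control, and *Prss39* at 1.23, 2.29 and 1.22 in CSR and 0.106, 0.415 and 1.36 in control.

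Of the genes of sperm-egg fusion, 4 transcripts were in the table and tested. *Tmem81*, of a sperm complex with Izumo1 described in zebrafish, read 19.5, 2.40 and 21.1 FPKM in CSR against 16.4, 14.5 and 22.2 in control, with CSR library 2 standing apart. *Llcfc1*, a sperm protein needed for fusion in mice, averaged 12.5 ± 2.54 FPKM in CSR against 9.33 ± 2.34 in control (SD, n = 3 each). The tetraspanin *Cd81* averaged 14.7 ± 1.17 and 16.4 ± 2.56 FPKM in CSR and control. *Cd9*, the tetraspanin that eggs need for fusion, was listed at 1.46, 0 and 0 FPKM in CSR against 1.53, 1.41 and 0.999 in control.

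The list of acrosome biogenesis had 21 tested transcripts, 9 positive and 12 negative, with a median of -0.08. *Actl7a*, an actin-like protein of the spermatid head, averaged 149 ± 22.9 FPKM in CSR against 166 ± 9.82 in control. Its paralog *Actl7b* read 160, 171 and 170 FPKM in CSR against 60.3, 161 and 169 in control, where control library 1 was low. *Capza3*, the sperm-specific actin capping subunit, read 169, 49.4 and 171 FPKM in CSR, with library 2 low, and 155, 167 and 164 in control. The kinase gene *Tssk1b* read 3.64, 78.4 and 4.33 FPKM in CSR against 3.07, 1.37 and 2.01 in control, so its fold change rests on CSR library 2. *Vps54*, of Golgi retrograde traffic, was listed at 1.73, 1.31 and 0 FPKM in CSR against 2.91, 2.53 and 1.80 in control.

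For acrosomal exocytosis 9 transcripts were tested, 1 positive and 8 negative, with a median of -0.16. *Catsper2*, a subunit of the sperm calcium channel, averaged 36.6 ± 7.25 FPKM in CSR against 49.5 ± 8.45 in control. Genes of the membrane fusion machinery varied, with *Napa* (alpha-SNAP) at 20.8 ± 0.916 and 21.3 ± 1.74 FPKM and the vesicle SNARE *Vamp3* at 7.24 ± 1.80 and 7.85 ± 1.18 FPKM in CSR and control. *Stx2*, a target SNARE named after its values were seen, read 5.04, 5.70 and 4.46 FPKM in CSR, below its 7.15, 7.81 and 6.93 in every control library (log2 fold change -0.46, limma adjusted p = 0.363), and *Vamp2*, named likewise, averaged 3.42 ± 1.55 and 4.81 ± 0.154 FPKM. *Nsf*, the ATPase that recycles SNAREs, was listed at 2.54, 0.309 and 0 FPKM in CSR against 4.18, 1.81 and 3.27 in control, and the phosphatase gene *Ptpn1* at 6.80, 1.91 and 7.65 in CSR and 4.40, 1.11 and 3.76 in control. Of 5 tested transcripts of spermatid transcription regulators, *Fhl5*, which encodes the CREM coactivator ACT, averaged 126 ± 7.56 FPKM in CSR against 123 ± 7.04 in control. *Tbpl1*, a TBP relative, averaged 9.92 ± 2.49 and 12.5 ± 2.79 FPKM, and *Rfx2*, of spermatid ciliary programmes, 10.03 ± 1.71 and 11.2 ± 3.88 FPKM. The *Crem* transcripts in the table were low, and the level of the whole gene is not read from them. NM_001110860 read 1.32, 1.76 and 0 FPKM in CSR against 1.15, 1.05 and 1.24 in control. NM_001271101 averaged 2.07 ± 1.04 FPKM in CSR and 1.80 ± 0.252 in control.

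Likeness between transcripts was measured by Pearson's r of log2(FPKM + 1) over the 6 libraries. All transcripts share these libraries and their depth, so the values describe the table only. *Acrbp* and *Izumo1* had an r of 0.975 and *Adam2* and *Spam1* of 0.959, while *Acrbp* and *Spam1* stood at -0.928. High values were common in the table. An r over 0.95 was reached by 206 tested transcripts with *Acrbp*, 185 with *Izumo1*, 57 with *Adam2* and 18 with *Spam1*. *Eqtn* stood at 0.674 with *Izumo1* and 0.628 with *Acr*. The transcripts most like *Eqtn* were *Mad1l1* (r = 0.98), of the spindle checkpoint, *Srsf7*, a splicing factor, *Rnf114*, a ubiquitin ligase, *Dnal1*, an axonemal dynein light chain, and 1 accession without a symbol (NM_080399), with r from 0.97 to 0.98. Of these, *Mad1l1* read 8.81, 8.59 and 8.14 FPKM in CSR against 6.19, 6.64 and 5.94 in control, a far smaller difference than that of *Eqtn*. Among those most like *Izumo1* was *Ccdc182*. Most like *Acr* were *Tektip1* and *Dynlrb1*, and like *Acrbp* were *Ccdc124* and *Pnpla2*. Those most like *Adam2* were *Golga7* and *Zfp52*, like *Spam1* *Cdk19* and *Ndufb6*, like *Zpbp* *Prcp* and *Diablo*, and like *Crisp2* *Ctcf* and the noncoding *Sert1*. *Tektip1*, a tektin-bundle protein of sperm flagella, read 12.3, 17.9 and 14.4 FPKM in CSR against 7.04, 0.290 and 11.2 in control, in the same order of libraries as *Acr* (r = 0.996).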

How the data were processed

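Poly(A) RNA from testis was sequenced in 3 CSR and 3 control libraries, per the labels' protocols. The authors deposited FPKM values per RefSeq transcript. Per the submitters' processing notes, reads were handled with Trimmomatic, HISAT2 and StringTie on rn6; no versions are named there, and how the transcripts were selected is not given in the sources used here. Ratios of low FPKM values between pairs of libraries showed no steps of whole reads (at most 1.32% of transcripts shared a ratio), so read depth is unknown and no counting interval is given. Symbols came from the RefSeq gene table of GRCr8, which matched 6911 accessions and left 105 unmatched. A transcript was tested if it reached 1 FPKM in 3 or more libraries, which left 5657. They were fitted on log2(FPKM + 1), which understates changes of low transcripts, with limma 3.58.1 (R 4.3.3, trended variance, two-sided), Benjamini-Hochberg adjustment over all of them and a threshold of 0.05. The fit was also run on simulated data with independent noise in each library, so that run does not cover libraries that are not independent.

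The 8 genes, the further lists, the tests and the alternatives were chosen with earlier results of these data known. Named genes are the 8, and from each pathway list the transcripts called, the 3 highest in mean FPKM and the 2 largest in absolute log2 fold change; from each marker list the highest; and the transcripts with the highest r to each of the 8 (5 for *Eqtn*, 2 for the others). The 12 bisulfite libraries were not used here, because their CpG positions are on rn6 and no annotation of that build was at hand, so no CpG could be assigned to these genes.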

Additional observations from a re-analysis of the deposited data

How the results depend on the processing

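The log2 fold changes of *Eqtn*, *Acr*, *Acrbp*, *Spam1*, *Crisp2* and *Adam2* kept their sign under all 17 alternatives run. That of *Zpbp* changed sign to 0.03 without control library 2 and to 0.16 with control library 3 as the lone control, and its values with 1 library left out ran from -0.21 to 0.03. That of *Izumo1* changed sign to -0.084 with control library 3 as the lone control. Using control library 3 as the lone control was chosen after seeing the data, and its single value is assumed to vary like the CSR libraries. The count of transcripts called by limma, 25, was 11 with a pseudocount of 0.1, 10 with at least 1 FPKM in all 6 libraries, 16 with values above 0 in all 6, 77 without the mean-variance trend, 7 with control libraries 1 and 2 averaged, 16 with control library 3 as the lone control, and between 4 (without control library 2) and 259 (without control library 3) when 1 library was left out. Of the 8 members, 1 was called, 0 with control libraries 1 and 2 averaged, 0 with control library 3 as the lone control, and 0 to 2 when 1 library was left out; *Izumo1* joined *Eqtn* without control library 3. Pathway transcripts called ranged from 0 to 2 when 1 library was left out, the 2 being *Dkkl1* and *Zp3r* without control library 3.

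With the replicate number as a block, 0 transcripts and 0 members were called by limma, with 715 transcripts at an unadjusted p under 0.05, and *Eqtn* had an adjusted p of 0.211. Same-numbered libraries did not deviate together across transcripts (r of 0.032, 0.009 and 0.042). A pairing that is small or touches few transcripts would not show in this r, so pairing by number is not excluded. Promoter methylation, planned in case an rn6 annotation was given, was not run. The cause of these changes was not tested.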
